A study of Mus musculus with 4 samples.

Results

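The 10 genes described here encode the NF-kB transcription factor subunits Rela, Relb, Rel, Nfkb1 and Nfkb2 and 5 proteins of the IkB family, Nfkbia, Nfkbib, Nfkbie, Nfkbiz and Bcl3. They were taken by gene name from a table of 29179 mouse genes, in which all 10 names were found once. All 10 reached 1 RPM (reads per 1000000 gene-assigned reads) in some library, the filter that left 15274 genes for comparison.

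The RNA came from YAMC cells, a mouse line immortalised under a condition that can be withdrawn and labelled as young adult mouse colonocytes. Poly(A) RNA of 4 cultures was sequenced, with the cells at passages 10 to 12. The groups were Sirt6 siRNA with TNF, Sirt6 siRNA in medium, control siRNA with TNF, and control siRNA in medium. Each group was 1 library, with 21755516, 23749380, 18793708 and 22422365 gene-assigned reads in that order. The siRNA was given at 50 nM, and TNF, where given, was added at 100 ng/mL for 24 h, starting 48 h after transfection. All 4 cultures had been kept at 33 °C with interferon-γ at 5 U/ml, and all were moved to 37 °C without interferon-γ for the 24 h before the treatment and during it. Because a group is 1 library, every difference below is between libraries and has no replicate check, and no ratio of single libraries carries a p-value. Intervals are at 95% and cover nothing but counting error, since reads were not tagged with molecular identifiers and can be copies. The words "rose" and "fell" are kept for genes at least 2-fold apart with an interval clear of no change. RNA was taken from whole cultures, so fewer cells of a kind and less RNA per cell cannot be told apart.

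NF-kB factors are dimers of 5 related subunits that share a Rel homology domain. In resting cells IkB proteins hold most dimers in the cytoplasm. TNF activates the IkB kinase complex, IkB is phosphorylated and degraded, and the freed dimers enter the nucleus. Many genes of the pathway, above all Nfkbia, are themselves NF-kB targets, so the pathway renews its own inhibitors. Nfkb1 and Nfkb2 encode the precursors p105 and p100, which are cut to p50 and p52 and which themselves retain Rel proteins through their ankyrin repeats. Sirt6 encodes a nuclear NAD-dependent deacylase of histone H3 that has been described as a partner of RelA at NF-kB target promoters.

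The silenced gene itself fell in both Sirt6 siRNA libraries. Sirt6 stood at 7.03 against 18.8 normalised RPM with TNF and 7.11 against 17.1 in medium, or 37.7% and 41.8% of control. The label of colonic epithelium was met in part. Of 9 epithelial markers found in the table, the simple keratins Krt8, Krt18 and Krt19 and the adhesion gene Cdh1 were read, with Krt8 between 375 and 662 RPM, while Epcam, Cdx2, Vil1, Krt20 and Cldn7 stayed at or below 0.223 RPM in every library. All 8 fibroblast markers passed 1 RPM, with Vim between 1757 and 2094 RPM and Col1a1 between 2646 and 3475 RPM. The summed epithelial markers ranged between 1161 and 1829 RPM over the libraries and were lower with TNF, at 1161 against 1512 RPM with Sirt6 siRNA and 1332 against 1829 RPM with control siRNA. Fibroblast markers were also lower, at 5218 against 6400 RPM and 5066 against 6154 RPM. Of 9 immune markers found, 3 passed 1 RPM (Csf1r, Cd68 and Itgam), the sum was between 17.4 and 21.01 RPM, and the leukocyte gene Ptprc stayed at or below 0.184 RPM. Of 6 endothelial markers 3 passed, the sum lay between 14.7 and 17.9 RPM, and Cdh5 stayed at or below 0.106 RPM. With Sirt6 siRNA the epithelial sum was lower than with control siRNA, at 1161 against 1332 RPM with TNF and 1512 against 1829 RPM in medium, and Krt18 at 439 against 618 RPM in medium. Krt19 went the other way, at 468 against 414 RPM with TNF and 559 against 534 RPM in medium. The fibroblast sum was 5218 against 5066 RPM and 6400 against 6154 RPM. The part of these shifts in the TNF and silencing results was not tested.

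The first comparison asked how the family responded to TNF with and without Sirt6 silencing. After 24 h of TNF, 5 of the 10 genes had risen and none had fallen under either siRNA. They were the same 5 genes, Relb, Nfkb1, Nfkb2, Nfkbia and Nfkbie, against 2.17% of all genes higher and 1.49% lower with Sirt6 siRNA, and 2.29% higher and 1.24% lower with control siRNA. The members were chosen with earlier results of these data known, so the count of 5 is not an independent result. The family's median log2 ratio was 0.98 and 0.97, against -0.01 and -0.00 over all genes compared. The inhibitor genes Nfkbie and Nfkbia moved most, Rela and Bcl3 had the smallest increases, and Nfkbiz alone was lower. At any size, the counting interval left out no change for all 10 genes, 9 higher and 1 lower, as it did for 47.4% of all genes with Sirt6 siRNA and 43.7% with control siRNA. Counting intervals narrow as reads increase, and all genes include those near 1 RPM. Such shares are therefore not matched to the members' depth. At a limit of 1.5-fold the counts were 7 with Sirt6 siRNA and 8 with control siRNA, against 9.78% and 9.4% of all genes. An additive model of TNF and siRNA over the 4 libraries called 10 members for TNF in edgeR and 8 in DESeq2, where 29.5% and 12.3% of all genes were called, and 0 for silencing in either, where 6.59% and 1.11% were. Without adjustment for multiple tests, silencing had a p under 0.05 for 3 members in edgeR and 0 in DESeq2, against 17.2% and 5% of all genes. The spread behind these calls is the disagreement of the TNF responses between the siRNAs, on 1 residual degree of freedom, not that of replicates. These models fit 1 silencing effect over TNF and medium, so opposite shifts cancel. Nfkbie, at log2 0.16 with TNF and -0.40 in medium, had -0.05 in edgeR. The models therefore cannot tell whether such a gene shifted in only 1 of the 2 conditions or in opposite directions.

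Among the subunits with a transactivation domain, Rela encodes p65, the main activating partner in the classical pathway. It stood at 182 normalised RPM with TNF and 124 in medium under Sirt6 siRNA, and at 191 with TNF and 124 in medium under control siRNA. Both TNF libraries lay above both medium libraries, and the medium libraries were alike. The log2 ratio of TNF to medium was 0.56 (interval 0.49 to 0.63) with Sirt6 siRNA and 0.63 (0.56 to 0.70) with control siRNA, short of a doubling. Relb, the activating subunit of the alternative pathway and the usual partner of p52, stood at 77.1 RPM with TNF and 33.8 in medium under Sirt6 siRNA, and at 70.3 and 31.7 under control siRNA. It rose 2.28-fold and 2.22-fold (log2 1.19, 1.07 to 1.31, and 1.15, 1.02 to 1.29). Rel, which encodes c-Rel, a subunit best known from lymphocytes, was the least read gene of the family, with 273 reads with TNF and 178 in medium under Sirt6 siRNA, and 247 and 155 under control siRNA. These were 12.8 and 7.40 RPM, and 13.2 and 6.84 RPM. Its log2 ratios of 0.78 (0.51 to 1.07) and 0.94 (0.65 to 1.25) did not reach the doubling, although their intervals did.

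Both precursor genes rose. Nfkb2 had 6666 reads with TNF and 2864 in medium under Sirt6 siRNA, and 6068 and 3089 under control siRNA, or 312 and 119 RPM and 324 and 136 RPM. The TNF libraries did not overlap the medium libraries, and the ratio was 2.62-fold with Sirt6 siRNA (log2 1.39, 1.33 to 1.45) and 2.38-fold with control siRNA (log2 1.25, 1.19 to 1.31). On the opposite strand Nfkb2 overlaps 299 exon bases of Psd, an Arf exchange factor gene with 1229 reads over the 4 libraries, and 531 of AC114539.1, so 14.9% of its 50-base sequences are shared and reads there cannot be told apart without strand. Nfkb1 stood at 195 RPM with TNF and 87.4 in medium under Sirt6 siRNA, and at 201 and 100.3 RPM under control siRNA. Its ratio was 2.23-fold with Sirt6 siRNA (log2 1.16, 1.08 to 1.23). With control siRNA it was 2.01-fold (log2 1.00, 0.93 to 1.08), so close to the limit that scaling by library totals put it at log2 0.98, below it.

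The classical IkB genes encode cytoplasmic inhibitors with ankyrin repeats. Nfkbia, which encodes IkBα, the inhibitor that is degraded and remade within an hour of stimulation, had 3186 reads with TNF and 961 in medium under Sirt6 siRNA, and 2637 and 1026 under control siRNA. These were 149 and 40.0 RPM, and 141 and 45.3 RPM. It rose 3.73-fold with Sirt6 siRNA (log2 1.90, 1.80 to 2.01) and 3.10-fold with control siRNA (log2 1.63, 1.53 to 1.74). Nfkbie, which encodes IkBε, an inhibitor that acts later than IkBα in mouse fibroblasts, had 1814 reads with TNF and 400 in medium under Sirt6 siRNA, and 1428 and 499 under control siRNA. At 85.0 and 16.6 RPM, and 76.3 and 22.03 RPM, it made the largest change of the 10 genes under either siRNA, a rise of 5.09-fold (log2 2.35, 2.20 to 2.51) and 3.45-fold (log2 1.79, 1.64 to 1.94). Nfkbib, which encodes the slowly degraded IkBβ, stood at 28.7 RPM with TNF and 16.4 in medium under Sirt6 siRNA, and at 29.6 and 15.8 RPM under control siRNA. Its log2 ratios of 0.80 (0.62 to 0.99) and 0.90 (0.71 to 1.10) stayed under the limit. Of its 50-base sequences 12.6% are shared with Ccer2 on the other strand, which had 4 reads in all. Sirt2, with 3813 reads, overlaps it on the other strand as well, by 42 exon bases, and reads in that stretch cannot be told apart without strand.

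The nuclear IkB proteins bind dimers on DNA and can activate genes. Nfkbiz, which encodes IkBζ, a coactivator of secondary response genes such as Lcn2, was the exception to the upward pattern. It stood at 54.3 RPM with TNF and 64.9 in medium under Sirt6 siRNA, and at 53.9 and 64.6 RPM under control siRNA. Both TNF libraries lay below both medium libraries, with log2 ratios of -0.26 (-0.37 to -0.15) and -0.26 (-0.38 to -0.15). Bcl3, which partners p50 and p52 homodimers in the nucleus, stood at 31.2 RPM with TNF and 24.9 in medium under Sirt6 siRNA, and at 28.3 and 20.1 RPM under control siRNA. Its log2 ratios were 0.33 (0.17 to 0.49) and 0.49 (0.31 to 0.68). The Bcl3 level with TNF under control siRNA and that in medium under Sirt6 siRNA had overlapping intervals, so its 4 libraries did not split cleanly by TNF.

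**Figure D1:**
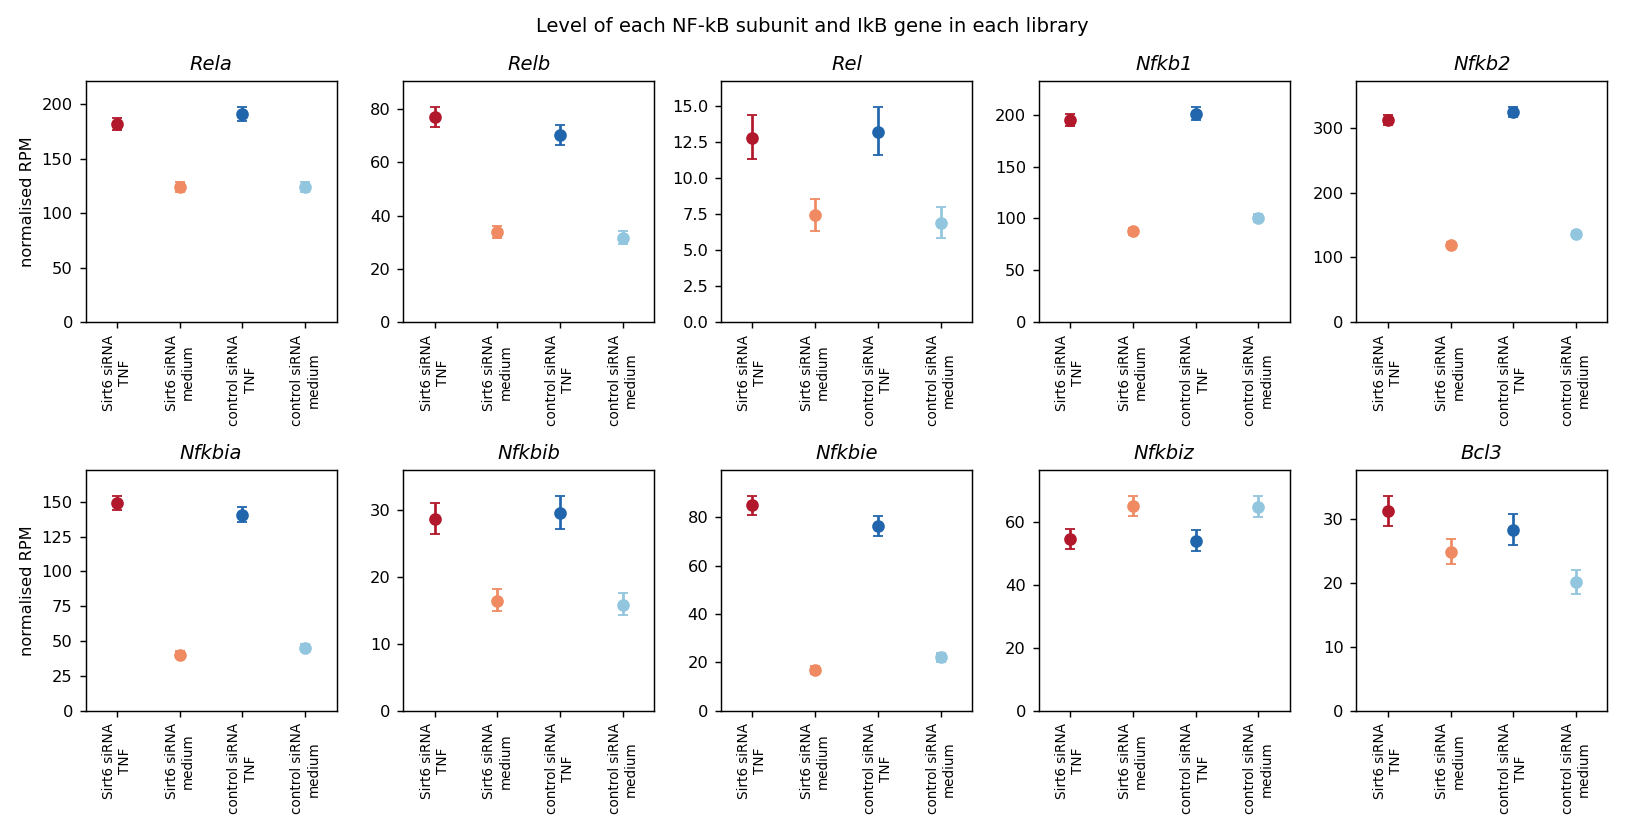
Normalised RPM (vertical axes, from 0) of each of the 10 genes in the 4 libraries, with bars for the 95% Poisson counting interval. The TNF libraries lie above the medium libraries for 9 genes and below them for Nfkbiz, which stands at 54.3 against 64.9 RPM with Sirt6 siRNA and 53.9 against 64.6 RPM with control siRNA.

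**Figure D2:**
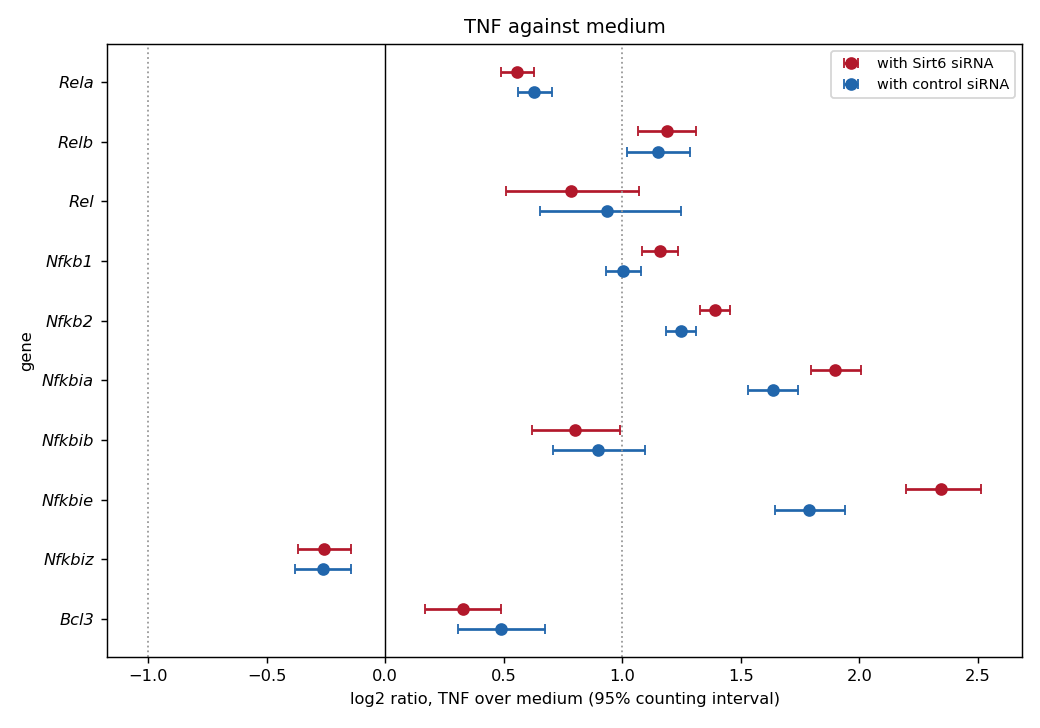
Log2 ratio of TNF to medium (horizontal axis) for each gene with Sirt6 siRNA and with control siRNA, with 95% counting intervals and dotted lines at a doubling either way. Nfkbie lies farthest to the right, at 2.35 with Sirt6 siRNA and 1.79 with control siRNA, and Nfkbiz lies left of 0 at -0.26 in both.

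Promoter windows of 300 bases (250 before to 50 after a transcription start, RefSeq, GRCm38.p6) were matched by symbol for 7 of the 10 genes, Rela, Rel, Nfkb2, Nfkbia, Nfkbib, Nfkbie and Bcl3. They were searched on both strands for the kappa B consensus, the 10-base NF-kB recognition motif, counting overlapping matches separately. Of the 7 genes, 5 had at least 1 match, namely Rel, Nfkb2, Nfkbia, Nfkbie and Bcl3. Of 27025 genes with a window, 9.55% had one, and of the windows with at least 60% G and C, 13.3% did. The 250 bases before the start are shown for the 3 genes that rose under both siRNAs and have a window, with consensus matches in capitals. They are the first of 3 Nfkb2 windows (chr19:46304487-46304736, plus strand), Nfkbia (chr12:55492648-55492897, minus strand) and Nfkbie (chr17:45555450-45555699, plus strand).
Nfkb2: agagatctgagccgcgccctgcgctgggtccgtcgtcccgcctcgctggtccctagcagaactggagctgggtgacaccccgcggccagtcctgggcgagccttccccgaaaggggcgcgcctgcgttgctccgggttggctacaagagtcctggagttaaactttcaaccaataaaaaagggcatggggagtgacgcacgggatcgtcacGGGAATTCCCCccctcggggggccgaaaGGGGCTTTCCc
Nfkbia: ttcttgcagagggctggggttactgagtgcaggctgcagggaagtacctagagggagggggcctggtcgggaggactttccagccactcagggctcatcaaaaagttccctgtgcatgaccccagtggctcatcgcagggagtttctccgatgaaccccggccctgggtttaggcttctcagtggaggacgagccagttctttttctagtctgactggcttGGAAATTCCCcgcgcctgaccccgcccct
Nfkbie: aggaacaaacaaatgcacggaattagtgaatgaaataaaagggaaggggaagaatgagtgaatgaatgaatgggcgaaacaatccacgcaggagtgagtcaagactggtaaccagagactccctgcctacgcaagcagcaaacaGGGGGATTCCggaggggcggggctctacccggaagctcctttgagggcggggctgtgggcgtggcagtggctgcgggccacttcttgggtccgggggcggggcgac
In Nfkb2 the capitals cover 3 matches, a pair that overlap by all but 1 base and begin 39 and 38 bases before the start, and 1 that begins 11 bases before it. Nfkbia had 1 match, on the other strand, which begins 29 bases before its start, and Nfkbie had 1, beginning 106 bases before. The matches as read on their own strands are shown next, since they differ in their middle bases.
Nfkb2 at -39: GGGAATTCCC
Nfkb2 at -11: GGGGCTTTCC
Nfkbia at -29: GGGAATTTCC
Nfkbie at -106: GGGGGATTCC
Rel at -92: GGGAAATCCC
Rel and Bcl3, which did not pass the doubling, held matches too, and no match lay in the windows of Rela and Nfkbib. A match is a run of letters and not a measured binding site.

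Set against Rela reads in the same library, a measure that needs no scaling between libraries, the make-up of the family moved with TNF. Nfkb2 had 1.71 reads per Rela read with TNF and 0.963 in medium under Sirt6 siRNA, and 1.69 and 1.10 under control siRNA. The ratio of these ratios was 1.78 (1.67 to 1.90) with Sirt6 siRNA and 1.54 (1.44 to 1.64) with control siRNA. For Nfkbie it was 3.47 (3.08 to 3.92) and 2.24 (1.995 to 2.51), and for Nfkbia 2.54 (2.33 to 2.77) and 2.01 (1.84 to 2.20). Both inhibitor genes had larger increases than Rela under each siRNA. Nfkbib and Rela stayed closer, with a ratio of 1.19 (1.03 to 1.36) and 1.21 (1.04 to 1.39). Nfkbiz had 0.298 reads per Rela read with TNF and 0.525 in medium under Sirt6 siRNA, and 0.282 and 0.523 under control siRNA, a ratio of 0.568 (0.519 to 0.622) and 0.539 (0.490 to 0.593). For Bcl3 the ratio was 0.852 (0.754 to 0.963) with Sirt6 siRNA and 0.909 (0.793 to 1.04) with control siRNA, and only the first interval left out 1. Rela itself was 1.47-fold and 1.55-fold higher with TNF, so these ratios are not the genes' own changes. Nfkbiz itself stood at 0.837 and 0.834 of its level in medium, and Bcl3 was 1.25-fold and 1.40-fold higher.

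**Figure D3:**
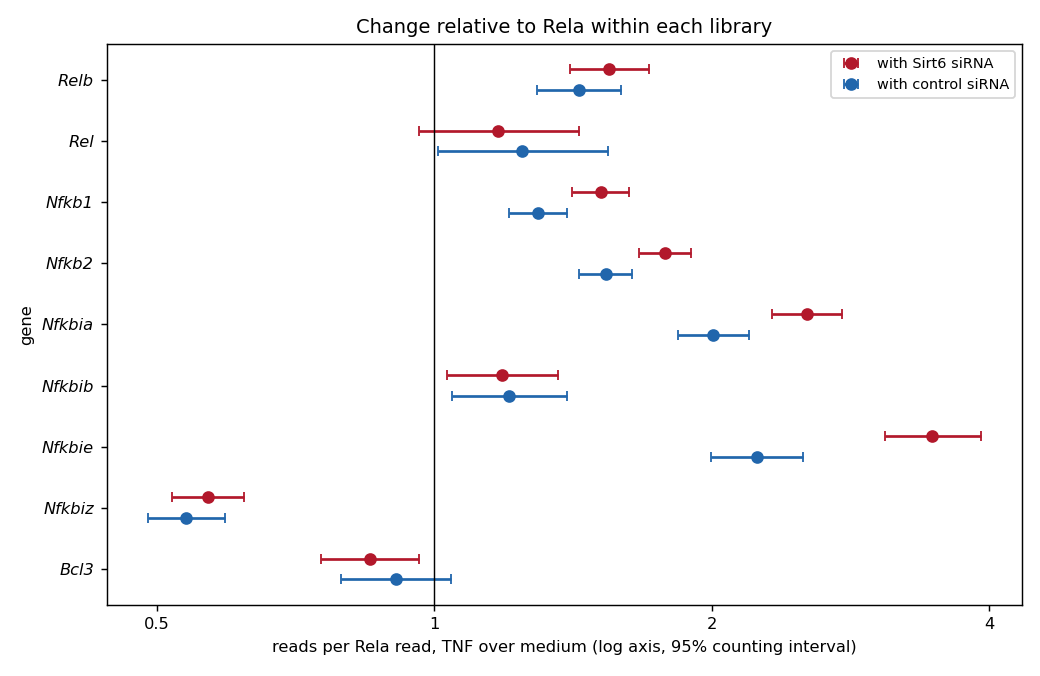
Reads per Rela read with TNF divided by the same in medium (horizontal axis, log scale) for the other 9 genes, with 95% counting intervals. Nfkbie reaches 3.47 with Sirt6 siRNA and 2.24 with control siRNA, while Nfkbiz lies at 0.568 and 0.539. Rela itself was 1.47-fold and 1.55-fold higher with TNF.

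Levels of different genes were compared per kilobase of exon, using the union of exons in GENCODE M21, as RPKM (normalised RPM per kilobase). In medium, Rela was the most abundant of the 10, at 40.3 RPKM under each siRNA, followed by Nfkb2 (26.0 with Sirt6 siRNA and 29.8 with control siRNA) and Nfkbia (24.8 and 28.1). With TNF the order at the top changed, with Nfkbia at 92.7 and 87.5 RPKM, Nfkb2 at 68.1 and 70.7, and Rela at 59.3 and 62.3. Rel stayed last in every library, between 0.917 and 1.77 RPKM. Among the 5 subunits, Rela made up 35.9% of the summed RPKM with TNF and 48.4% in medium under Sirt6 siRNA, and 36.7% and 46.1% under control siRNA. The Nfkb2 share was 41.3% with TNF and 31.2% in medium under Sirt6 siRNA, and 41.7% and 34.0% under control siRNA. The summed RPKM of the 3 classical inhibitors was 0.810 of the subunit sum with TNF and 0.455 in medium under Sirt6 siRNA, and 0.744 and 0.488 under control siRNA. Per length of the longest transcript these 4 values were 0.620, 0.356, 0.569 and 0.378, in the same order. Nfkb1 depends most on the choice, since its exon union of 12061 bases is far longer than its longest transcript of 4149 bases.

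The second comparison asked what silencing Sirt6 did to the family. None of the 10 genes rose or fell with Sirt6 siRNA, with TNF or in medium, where 1.05% and 1.01% of all genes did. Of genes with at least 5 RPM in some library, a filter every member passed, 0.131% and 0.115% did. No call among 10 genes is therefore what most genes of such levels show. The log2 ratios of Sirt6 siRNA to control siRNA ran from -0.07 to 0.16 with TNF and from -0.40 to 0.31 in medium, with medians of -0.02 and 0.00 against -0.00 and 0.00 over all genes. At any size, the interval left out no change for 5 genes with TNF (27.4% of all genes did so) and for 5 in medium (31.5% of all genes). These shares of all genes are not matched for read depth, on which the width of an interval depends. In medium, 4 of them were lower, Nfkbie, Nfkb1, Nfkb2 and Nfkbia, where 16.7% of all genes were. These 4 also rose with TNF, in comparisons that share the medium libraries.

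In medium, Nfkbie was lower by 1.32-fold (log2 -0.40, -0.60 to -0.21), at 16.6 RPM with Sirt6 siRNA and 22.03 with control siRNA. Nfkb1 and Nfkb2 had log2 ratios of -0.20 (-0.28 to -0.11) and -0.20 (-0.27 to -0.12), and Nfkbia had -0.18 (-0.31 to -0.05). Bcl3 was higher, at 24.9 and 20.1 RPM (log2 0.31, 0.13 to 0.49). For the other 5 genes the interval included no change. Rela, with 123.7 RPM in each medium library, had an interval of -0.07 to 0.08. Ratios in medium rose with the GC content of the genes (Spearman correlation 0.200 across 14941 genes, which are not independent replicates). Centred on genes of like GC content, the log2 ratios in medium were -0.44 for Nfkbie, -0.25 for Nfkb2, -0.20 for Nfkbia, -0.17 for Nfkb1 and 0.25 for Bcl3.

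With TNF, Nfkbie had a log2 ratio of 0.16 (0.06 to 0.26) for Sirt6 siRNA, at 85.0 and 76.3 RPM. Relb had 0.13 (0.03 to 0.24), at 77.1 and 70.3 RPM, and Nfkbia 0.08 (0.01 to 0.16), at 149 and 141 RPM. Rela and Nfkb2 were lower by less still, at -0.07 (-0.14 to -0.01) and -0.05 (-0.10 to -0.00). These small shifts depend on how the libraries are scaled. By size factors of the DESeq2 type neither Rela nor Nfkb2 kept an interval that left out no change, and by library totals Nfkb1 joined them on the lower side while Nfkbia dropped out. In medium the same 5 genes kept such an interval under all 3 scalings, but the scalings hardly differ for the medium libraries. Nfkbia there had -0.181 by TMM, -0.177 by library totals and -0.187 by DESeq2-type factors. That check could hardly fail and says little about robustness.

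**Figure D4:**
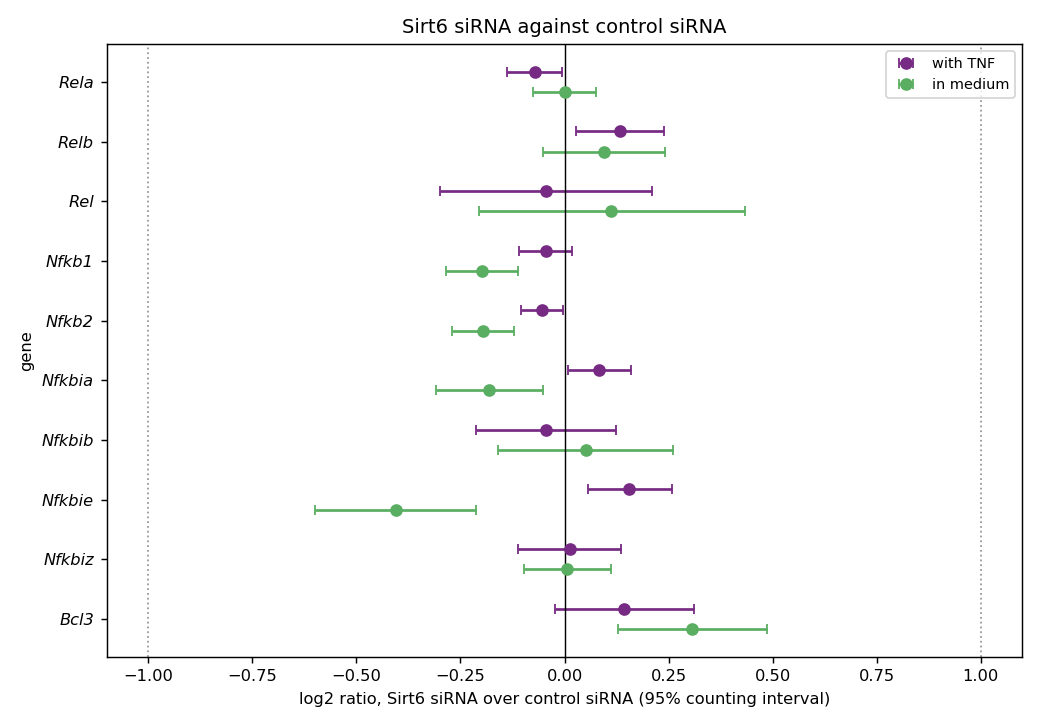
Log2 ratio of Sirt6 siRNA to control siRNA (horizontal axis) for each gene with TNF and in medium, with 95% counting intervals and dotted lines at a doubling either way. All points lie between -0.40 (Nfkbie in medium) and 0.31 (Bcl3 in medium), well inside the dotted lines.

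The difference of the TNF responses, with Sirt6 siRNA minus with control siRNA, uses all 4 libraries. No member passed the rule of a log2 difference of at least 1, which 1.68% of all genes passed. Of genes with at least 5 RPM in some library, 0.147% passed it. At any size the interval left out 0 for 4 of the 10 genes, all with the larger response under Sirt6 siRNA, where 12.6% of all genes had a larger and 8.53% a smaller one, 21.1% in all. Those shares are not matched for read depth, and deeper genes have narrower intervals. The difference was 0.56 (0.35 to 0.78) for Nfkbie, 0.26 (0.12 to 0.41) for Nfkbia, 0.15 (0.05 to 0.26) for Nfkb1 and 0.14 (0.05 to 0.23) for Nfkb2. Each is by construction the silencing ratio with TNF less that in medium. For Nfkbie 0.40 of the 0.56 lay in the medium libraries, and for Nfkb1 and Nfkb2 the TNF libraries had ratios below 0. For the other 6 genes the interval included 0, among them Relb at 0.04 (-0.14 to 0.22) and Rel at -0.16 (-0.55 to 0.24).

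Other genes of the pathway were counted in 7 lists, which share Birc3, Tnfaip3, Map3k14 and Chuk between pairs of lists. Over all genes, 2.17% were higher with TNF under Sirt6 siRNA and 2.29% under control siRNA, with median log2 ratios of -0.01 and -0.00. Of 10 genes of the IkB kinase complex and its upstream kinases, 1 rose with TNF under both siRNAs, Ikbke, an IKK-related kinase, at 80.4 and 27.6 RPM with and without TNF under Sirt6 siRNA and 92.7 and 39.5 RPM under control siRNA (2.90-fold and 2.34-fold). The kinase genes Chuk and Ikbkb, which form the IKK core, had log2 ratios of 0.18 and 0.17 with Sirt6 siRNA and 0.02 and 0.31 with control siRNA, and the list's median was 0.12 and 0.08. Of 6 alternative pathway regulators 1 rose, Birc3, a ubiquitin ligase gene (4.15-fold and 3.27-fold), and the list's median was 0.46 and 0.54. Map3k14, which encodes the NF-kB inducing kinase, is in this list and the last and had log2 ratios of 0.74 and 0.77. None of 4 further IkB-related genes or of 5 found genes of the IkB ubiquitin ligase moved past the rule (medians 0.07 and -0.01, and 0.09 and -0.01), nor did any of 11 nuclear partners and modifiers (-0.08 and -0.06). Of 9 brakes found, 2 rose. The deubiquitinase gene Tnfaip3, which encodes A20, was 5.59-fold and 3.99-fold higher, and its partner gene Tnip1 was 2.43-fold and 2.23-fold higher. Pdlim2, which encodes a nuclear ligase for p65, was lower at log2 -0.98 and -0.53, short of the rule.

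Of 19 NF-kB target genes, 18 rose under both siRNAs (median log2 2.50 and 2.43), where 2.17% and 2.29% of all genes were higher. This list was chosen with earlier results of these data known, so the count is not an independent result. Cxcl1, Cxcl2, Csf2, Traf1, Nos2 and Mmp9 were below 1 RPM in both medium libraries and passed the filter through the TNF libraries alone. The 3 targets with the largest mean change were the cytokine gene Csf2 (38.2-fold and 33.5-fold), the nitric oxide synthase gene Nos2 (34.5-fold and 16.7-fold) and the protease gene Mmp9 (24.6-fold and 18.9-fold), each with 20 reads or fewer in either medium library. The prior count of 2 pulls such folds towards 1. Mmp9, with 2 reads in each medium library, stood at 4.22 against 0.0831 RPM with Sirt6 siRNA and 3.31 against 0.0883 RPM with control siRNA, a wider gap than its folds show, with log2 intervals of 3.77 to 8.73 and 3.32 to 8.31. Cxcl5 was the target that passed under neither siRNA (log2 0.69 and 0.53). For silencing, 1 gene of all 7 lists passed the rule, which 1.05% of all genes did with TNF and 1.01% in medium. Nos2 fell in medium (log2 -1.35, -3.09 to -0.30), with 7 reads under Sirt6 siRNA and 20 under control siRNA, and its difference of the TNF responses of 1.05 (0.01 to 2.46) rests on those reads. The median silencing log2 ratio was -0.07 with TNF and -0.29 in medium for the targets, 0.02 and -0.12 for the brakes and -0.02 and -0.20 for the alternative pathway regulators. It was -0.07 and -0.10 for the kinases, 0.05 and 0.04 for the further IkB-related genes, -0.00 and 0.00 for the ubiquitin ligase and 0.00 and 0.01 for the nuclear partners, against -0.00 and 0.00 over all genes. Tnfaip3 had -0.07 (-0.12 to -0.03) with TNF and -0.56 (-0.65 to -0.47) in medium, and a difference of the responses of 0.48 (0.38 to 0.59). Of the other targets, some were higher with Sirt6 siRNA and some lower, short of the rule. The cytokine gene Il6 had 0.57 (0.35 to 0.81) with TNF and 0.98 (0.63 to 1.38) in medium. The chemokine gene Cxcl5 had 0.62 and 0.47, and Ptx3, which encodes a pentraxin, had 0.59 and 0.45. Lower were Lcn2, at -0.70 (-0.88 to -0.51) with TNF and -0.53 (-0.87 to -0.21) in medium, and Ccl20, at -0.19 and -0.95 (-1.51 to -0.46). Csf2 had -0.76 with TNF, with an interval clear of no change. In medium it had -0.95, and there the interval included no change.

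**Figure D5:**
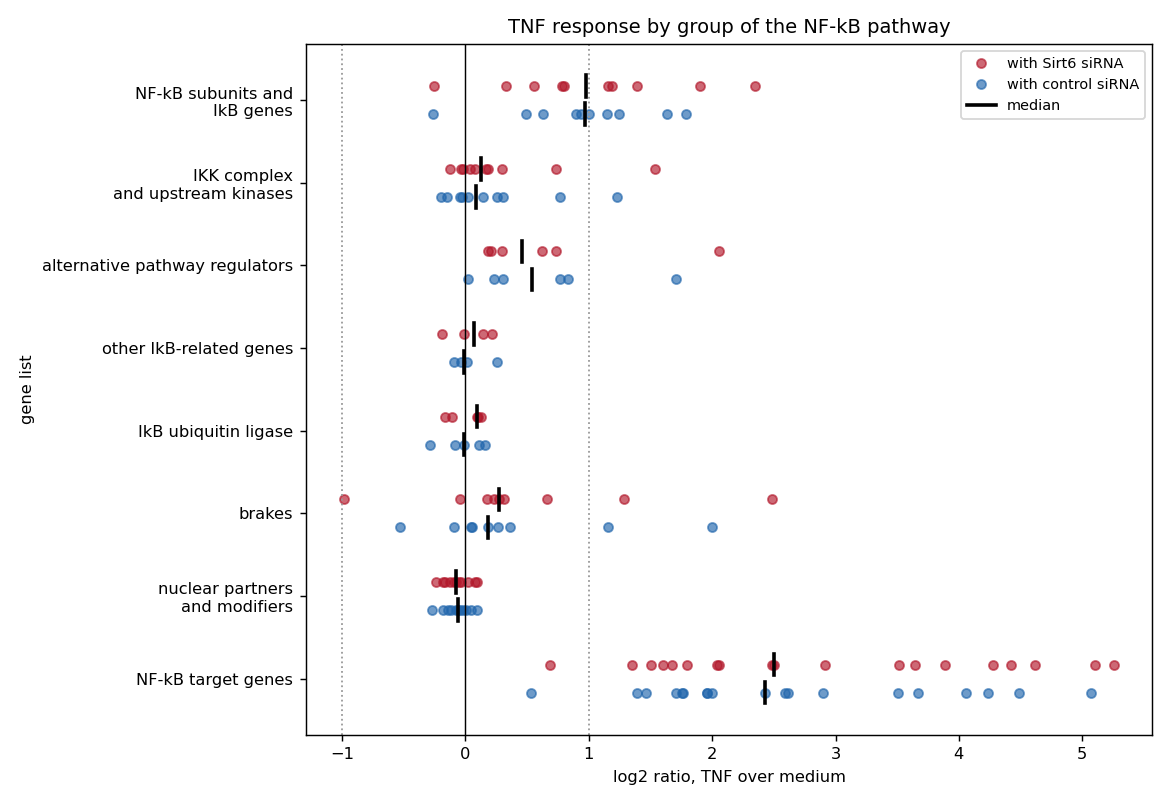
Log2 ratio of TNF to medium (horizontal axis) for the 10 family members and for each gene of 7 pathway lists, with Sirt6 siRNA and with control siRNA. Black bars mark list medians, which are 0.98 and 0.97 for the family, 2.50 and 2.43 for the target genes, and between -0.08 and 0.54 for the other 6 lists.

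Genes with the most similar pattern were sought for the 5 members that rose, by the distance between log2 levels centred on each gene's mean over the 4 libraries, among 11456 genes with at least 100 reads in every library. Nfkb2 lay closest to Ifi204 (distance 0.046) and the AP-1 factor gene Fosl1 (0.052). Among the nearest genes to Nfkb1 was Oas1a (0.049). Relb lay closest to Nmi (0.108) and Cd14 (0.124), and Nfkbia to Oasl2 (0.103) and Phf11d (0.120). Nfkbie had the most distant neighbours, Angptl4 (0.160) and Gm4070 (0.188). With 4 libraries many genes come close, and 67 lay within 0.25 of Nfkb1, 50 of Nfkb2, 35 of Relb, 19 of Nfkbia and 9 of Nfkbie. Oas1a and Ifi204 belong to families of near-identical genes whose reads may be split.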

How the data were processed

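Per the file headers, the authors deposited read counts per gene for 4 libraries. A second set of deposited columns is headed RPKM, but each value equals the count over the library total, per 1000000 reads, to within 0.0005, so the unit is RPM and no gene length is in it. Per the submitters' processing notes, CASAVA, Bowtie 1.0.1 and edgeR were used, with no order given. The genome build, annotation and read counter are not given in the sources used here.

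The filter kept the 15274 genes that reached 1 RPM in any library. Libraries were scaled by TMM over those genes in edgeR 4.0.16 (R 4.3.3), and log2 ratios used a prior count of 2. Intervals of a ratio are exact conditional binomial, those of a level exact Poisson, those relative to Rela a conditional odds ratio, and those of the difference of responses delta-method with 0.5 added to each count. Comparisons of single libraries carry no p-value. For scale, 3 reads are 0.126 to 0.160 RPM in these libraries, and levels below that were printed as they stand. Exon lengths, GC content and shared sequence came from GENCODE M21, and promoters from RefSeq. The procedure was run on simulated counts with Poisson counting error alone. Such counts cannot show how it performs with variation between cultures. Alternatives were other scalings, prior counts, filters and fold limits, GC centring, and additive models of siRNA and TNF in edgeR (quasi-likelihood) and DESeq2 1.42.0. Every member was named. In each list up to 3 genes past the rule under both siRNAs were named, those past it for silencing too, and for each member that rose its 2 nearest patterns, apart from items not reported here. Chuk, Ikbkb, Map3k14, Pdlim2, Il6, Cxcl5, Ptx3, Lcn2, Ccl20, Cxcl1, Cxcl2 and Traf1 were named after their values were seen. Members and lists were chosen with earlier results of these data known.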

Additional observations from a re-analysis of the deposited data

Results flagged for a closer look

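Among the 10 genes, 4 had TNF responses that differed between the siRNAs by more than counting error, all with the larger response under Sirt6 siRNA. The difference in log2 ratio was 0.56 for Nfkbie, 0.26 for Nfkbia, 0.15 for Nfkb1 and 0.14 for Nfkb2. The interval behind each covers counting error alone, since no group has a replicate, and 21.1% of all genes had an interval that left out 0. That share is not matched to the read depth of the 4 genes.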

How the results depend on the processing

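The count of family members past the rule with TNF was 5 under each siRNA and stayed there with other scalings, prior count and filters, with 1 exception, Nfkb1 with control siRNA, which scaling by library totals put at log2 0.98. At a limit of 1.5-fold the count with control siRNA was 8, against 9.4% of all genes. With no limit on size, an alternative chosen after seeing the data, the counts were 10 and 10 for TNF, 5 and 5 for silencing, and 4 for the difference. Of all genes, the shares were 47.4% with Sirt6 siRNA and 43.7% with control siRNA for TNF. They were 27.4% with TNF and 31.5% in medium for silencing, and 21.1% for the difference. None of these shares is matched to the members' read depth, on which the intervals depend. An additive edgeR model (quasi-likelihood test, 1 residual degree of freedom, common biological coefficient of variation 0.039) called 10 members for TNF (adjusted p up to 0.000554, threshold 0.05), and DESeq2 called 8, leaving out Nfkbiz (log2 -0.26, adjusted p 0.122) and Bcl3 (log2 0.41, adjusted p 0.0716). Of all genes, 29.5% and 12.3% were called for TNF. For silencing both called 0, against 6.59% and 1.11% of all genes. That effect is averaged over TNF and medium, so opposite shifts such as those of Nfkbie cancel in it. At an unadjusted p under 0.05, edgeR had 3 (Nfkb1, Nfkb2 and Bcl3) and DESeq2 0, against 17.2% and 5% of all genes. The spread behind these p-values is the disagreement of the TNF responses between the siRNAs, not that of replicates. The members' log2 ratios were recomputed under several settings, 170 values in all. Of these, 169 kept their side of the rule, 1 lost it and 0 reversed, with a reversal counted only for members past the rule. The silencing ratios and response differences among them lay far inside the limit and could hardly change side, so they say little about robustness. Per length of the longest transcript, mean levels were 57.1 RPKM for Rela, 16.3 for Relb, 35.2 for Nfkb1, 58.0 for Nfkb2, 10.98 for Nfkbib, 14.4 for Nfkbiz and 14.1 for Bcl3, since only the length changed. No paired analysis was possible because each group is 1 library with no replicate number to pair by. The additive models do compare TNF with medium within each siRNA. Depth limits Rel most, at 155 reads in the shallowest library for it.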
